A study of Mus musculus with 10 samples.

Results

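Isolated lost regions inside gene bodies are stretches of open chromatin within protein-coding genes whose read count was lower in atrial cardiomyocyte (CM) nuclei of Tbx5G125R mice than in those of Control mice, away from the ends of genes and from clusters of other such regions. They were selected on measured values: the geometric mean of the raw counts was lower in Tbx5G125R than in Control, the region overlapped the span of a RefSeq protein-coding gene, it lay over 1 kb from the start and end of any annotated gene, and it did not belong to a run of 4 or more lost regions with gaps of at most 50 kb. The rule took 492 regions in 421 genes, out of 1164 lost regions and 10010 listed regions in all (42.3% and 4.92%). Because the genotype contrast chose them, the lower levels described here are a property of the selection and carry no test.

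Accessibility was measured by ATAC-seq, in which a transposase inserts sequencing adapters into open chromatin. Nuclei came from the left and right atria of single mice aged 8 to 12 weeks, pooled per mouse and sorted on PCM1, a centriolar satellite protein that marks the nuclear envelope of CMs. The 4 Tbx5G125R animals carried 1 copy of the G125R substitution in every cell from the germ line on, and the 4 Control animals did not. Labels give neither sex nor strain background, and they name the individual animals, so that p-values measure the spread between mice. Control animals 1 and 3 had 2 libraries each, which were summed, giving 8 animals from 10 libraries.

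Raw counts per library were deposited for regions with a called difference between genotypes and no others, 8846 gained and 1164 lost. Counts are given here as scaled counts, divided by a factor per animal. They were set on 1 scale between genotypes by an offset of 0.29 on the log2 scale that best recovered the deposited fold changes, so the genotype comparison is not independent of the authors' own scale. Summed counts over the 10010 regions ran from 630392 in Control animal 2, the lowest sum, to 2776475 in Control animal 3, and from 1716962 to 2414261 in Tbx5G125R. Over the 492 regions alone they were 66594, 16983, 67461 and 26574 in Control animals 1 to 4, and 16274, 19405, 21531 and 19240 in Tbx5G125R animals 1 to 4. In a bulk assay, fewer nuclei with an open site and less opening per nucleus cannot be told apart. Cell identity could be read only through listed regions, and only weakly. Of 17 CM marker genes, 2 (Ckm and Ryr2) hosted 4 of the regions, most of them in Ryr2. None lay in the fibroblast, endothelial, leukocyte, smooth muscle and pericyte, or epicardial, neural and fat cell marker genes. These lists hold 11 to 17 genes each, and 1.92% of all protein-coding genes hosted a region, so an empty list says little. In the order given they held 5, 4, 1, 3 and 1 gained regions, beside 40 in the CM list. The endothelial list also held 4 other lost regions.

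Tbx5 is a T-box transcription factor that binds DNA at a short sequence with a GTG core and maintains the atrial gene programme together with partners such as Gata4, Nkx2-5 and Mef2c. Many of its binding sites in the heart lie in introns and between genes, where enhancers act over a distance on a promoter. The start of an active gene is open in most cells that express it, whereas an open site inside a gene body may be an enhancer, a second promoter or a site of another function, which ATAC-seq does not distinguish.

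Only 1 of the 492 regions covered an annotated transcription start, against 216 of 3038 gained gene-body regions (0.203% and 7.11%). The share was also low in other lost classes, at 2.46% in runs and 5.05% at gene ends, beside 61.8% of gained regions at gene ends. The 1 region of the 492 over a start lay in Csrp3, which encodes muscle LIM protein, a Z-disc protein of striated muscle. Csrp3 is read from the minus strand of chromosome 7 and has 2 annotated starts, at 48848051 and 48843671. The downstream start sits inside a lost region (chr7:48843501-48844000), and the upstream start inside a gained region at the gene end (chr7:48848001-48848500). Both start windows, from 250 bases before to 50 bases after the start, are shown because the listed changes at these starts of 1 gene run in opposite directions. They were taken from RefSeq on GRCm38.p6, which is mm10, as chr7:48843622-48843921 and chr7:48848002-48848301, and are printed on the minus strand from 5′ to 3′. Capitals mark the T-box letters AGGTGT and the KLF letters CACCC, each searched on both strands.
Csrp3 downstream start: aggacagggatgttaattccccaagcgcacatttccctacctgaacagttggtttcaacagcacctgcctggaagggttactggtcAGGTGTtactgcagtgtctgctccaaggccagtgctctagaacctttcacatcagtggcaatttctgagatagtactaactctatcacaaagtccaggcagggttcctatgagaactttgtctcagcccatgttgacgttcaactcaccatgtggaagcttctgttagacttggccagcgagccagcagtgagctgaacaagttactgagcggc
Csrp3 upstream start: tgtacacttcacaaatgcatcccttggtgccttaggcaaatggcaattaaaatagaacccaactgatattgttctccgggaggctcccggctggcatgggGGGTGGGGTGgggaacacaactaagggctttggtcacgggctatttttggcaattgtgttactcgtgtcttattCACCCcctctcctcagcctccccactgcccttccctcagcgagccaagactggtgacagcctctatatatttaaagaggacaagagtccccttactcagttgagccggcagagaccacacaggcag
The downstream window held 1 match to AGGTGT, with its first base at position -164 from the start, and none to CACCC. In the upstream window there were 3 matches to CACCC, of which a pair lies side by side, and none to AGGTGT. Of all 32851 annotated start windows of this length, 13.7% held AGGTGT and 57.5% held CACCC. The letters CANNTG, an E-box, overlap the T-box match by 5 bases and occur in 72.3% of windows. MEF2 (TAAAAATA), GATA (GATAA), SP (GGGCGG) and M-CAT (CATTCC) letters were absent from both windows. A match describes the letters and not the binding of a factor.

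Scaled counts at the downstream start of Csrp3 were 209.9, 127.8, 123.6 and 102.8 in Control animals 1 to 4, and 111.8, 69.3, 98.7 and 56.1 in Tbx5G125R animals 1 to 4. The genotypes overlapped at their edges, and the log2 fold change was -0.80 ± 0.21 (SE, n = 4 and 4). At the upstream start the mean rose from 306 ± 20.1 to 432 ± 54.7 (SD, n = 4 each; log2 fold change 0.49 ± 0.10). Farther into the gene, the region at chr7:48838001-48838500 had 82.9, 37.2, 46.3 and 44.4 in Control and 30.3, 27.9, 28.2 and 24.2 in Tbx5G125R. The last of the 3, at chr7:48834251-48835000, had 204.1, 86.0, 78.3 and 45.7 against 46.0, 35.6, 53.6 and 40.6. Control animal 1 was the highest of its group at all 3 lost regions, by 1.64 times or more over the next animal. Without it the log2 fold change fell in size from -0.80 to -0.50 at the downstream start, from -1.0 to -0.66 at the middle region and from -1.30 to -0.66 at the last.

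**Figure D1:**
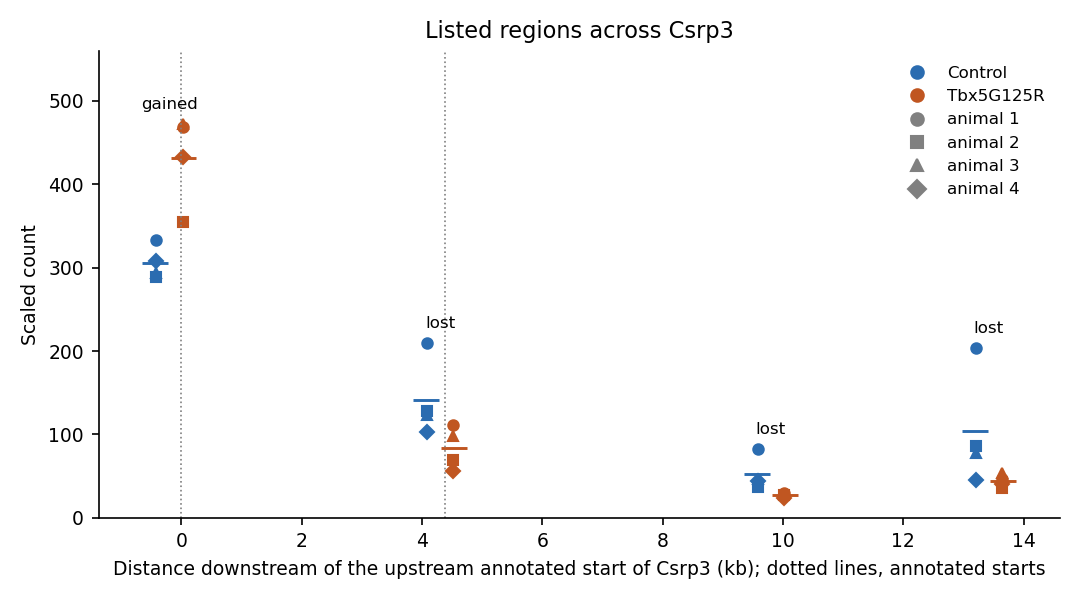
Scaled counts of the 4 listed regions of Csrp3 by distance downstream of the upstream annotated start (kb), with 1 symbol per animal and short lines at the group means. Control (blue) and Tbx5G125R (orange) are drawn slightly left and right of each region's centre, dotted lines mark the annotated starts, and Control animal 1 (blue circles) stands highest at the 3 lost regions.

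Across the 492 regions the mean scaled count in Control had a median of 52.6 (quartiles 41.3 and 72, range 22.6 to 763), and in Tbx5G125R a median of 26.8 (quartiles 19.6 and 39.3, range 8.36 to 459). The log2 fold change of Tbx5G125R over Control, fitted to the counts of all 10010 regions, had a median of -0.96, quartiles of -1.12 and -0.82 and a range from -2.22 to -0.53. Its standard error had a median of 0.27. Throughout, the error of a log2 fold change is this standard error, that of a mean is the SD over 4 animals, and values per animal are in the order of animals 1 to 4, Control before Tbx5G125R. In 206 regions the level was lower by 2-fold or more, and in 15 the log2 fold change was -1.5 or below. With edgeR (quasi-likelihood, adjusted p under 0.05), all 492 were called lower, as were 11.6% of all listed regions, which is what the selection of lost regions fixes. In 376 (76.4%) every Tbx5G125R animal was under every Control animal, against 8.50% of all listed regions, and in 116 the animals overlapped. The count rests on the scale between genotypes: it was 181 with no offset and 487 with median-ratio factors computed over the table per animal. Lower Control levels went with larger folds: the median log2 fold change was -1.12 in the 112 regions under 40 scaled counts, -0.97 in the 201 between 40 and 60, -0.87 in the 139 between 60 and 150, and -0.71 in the 40 at 150 or more. Regions of few reads had to differ more to be listed, so this order was partly set by the selection.

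**Figure D2:**
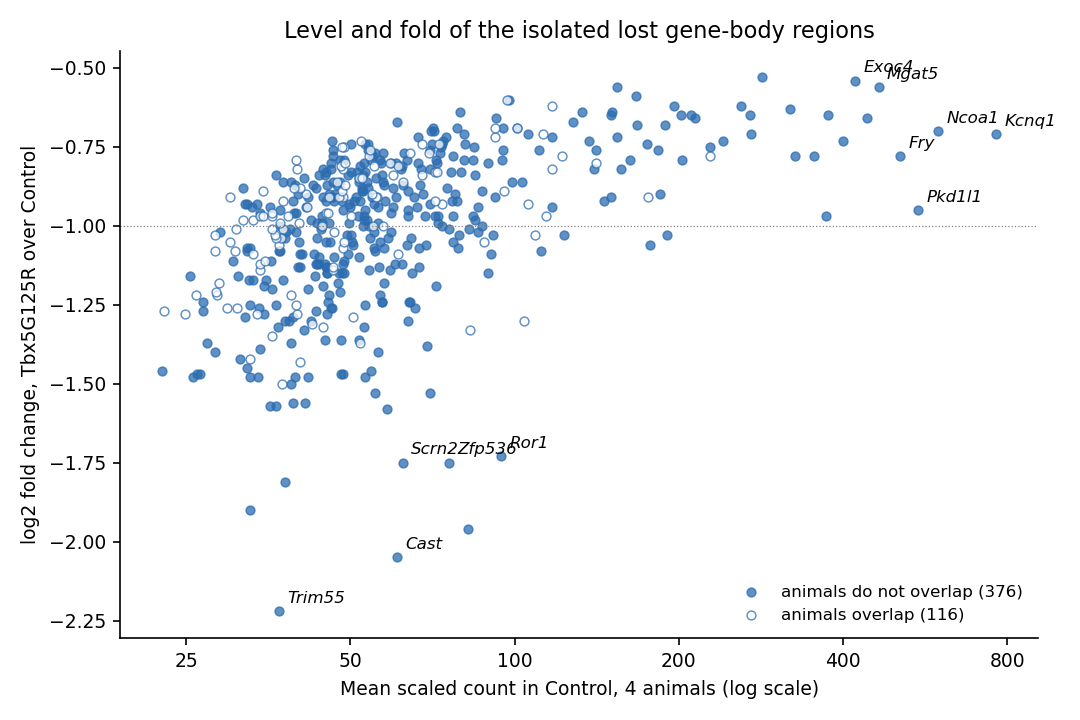
Log2 fold change of Tbx5G125R over Control against the mean scaled count in Control (log scale) for the 492 regions, with filled points where the animals do not overlap (376) and open points where they do (116). The dotted line marks a 2-fold lower level, and the largest folds, at Trim55 and Cast, lie among regions of low to middle level.

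The most negative fold of all belonged to Trim55, which encodes a ubiquitin ligase of the sarcomere (chr3:19650251-19651250). Its scaled counts were 56.8, 20.9, 39.7 and 30.4 in Control and 9.2, 6.7, 12.2 and 5.8 in Tbx5G125R. Every Tbx5G125R animal was below the lowest Control animal, and the log2 fold change was -2.22 ± 0.37. A second region of Trim55 had means of 57.2 ± 7.99 and 25.1 ± 4.67 (SD, n = 4 each).

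Among regions at or above the median level with animals that did not overlap, taking 1 region per gene, Cast came first. It encodes calpastatin, the inhibitor of the calcium-activated calpain proteases. At chr13:74744251-74745250 Control animals had 43.5, 58.1, 65.6 and 76.1, and Tbx5G125R animals 13.2, 3.8, 13.2 and 28.0 (log2 fold change -2.05 ± 0.34). A neighbouring region of Cast 250 bp away had 87.0, 46.5, 99.7 and 95.1 against 26.3, 18.3, 28.2 and 15.5 (-1.96 ± 0.25). Both stretches lay far inside the gene, 22330 and 23580 bp from the nearest gene end, and Cast held no gained region.

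Zfp536, a zinc-finger factor gene known from brain, held the widest region, 2250 bp long (chr7:37394251-37396500). Control animals were close together at 75.4, 74.4, 79.3 and 73.6, and Tbx5G125R animals spread from 11.8 to 33.8 (log2 fold change -1.75 ± 0.26). Scrn2 had 72.5, 79.0, 65.1 and 33.0 in Control and 10.5, 21.2, 24.4 and 16.4 in Tbx5G125R (-1.75 ± 0.29), with Control animal 4 well under the other Control animals. Ror1, a receptor tyrosine kinase-like protein that binds Wnt ligands, had 96.8, 127.8, 104.8 and 48.2 against 27.6, 12.5, 27.3 and 45.4 (-1.73 ± 0.28). There Control animal 4 and Tbx5G125R animal 4 were close to touching.

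The other 8 regions named for large folds ran from -1.58 to -1.32. Nid2, a nidogen of basement membranes, had 54.5, 88.3, 75.3 and 62.2 in Control and 21, 26.9, 19.7 and 27.1 in Tbx5G125R (log2 fold change -1.53 ± 0.24). Gabrg3, a subunit of GABA receptors, had the same fold (-1.53 ± 0.29) from 55.5 to 18.3. Col25a1, a transmembrane collagen, fell from 53.1 to 18 (-1.48 ± 0.31), though its Control animals ranged from 28.5 to 79.0. Pfkfb2, the cardiac form of an enzyme that sets the level of a glycolytic activator, had 33.6, 51.1, 54.4 and 72.3 against 19.7, 26.9, 19.7 and 16.4 (-1.32 ± 0.29). Heatr5b (-1.58 ± 0.27), Stk32b (-1.46 ± 0.27), the monocarboxylate transporter gene Slc16a7 (-1.40 ± 0.31) and the lectin gene Clec2g (-1.38 ± 0.24) completed the 12. None of these 12 genes held a gained region.

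The highest Control level was at chr7:143368001-143368750 in Kcnq1, the pore-forming subunit of the slow delayed rectifier potassium channel. Its scaled counts were 802.4, 945.8, 544.7 and 757.4 in Control and 522.3, 438.9, 444.6 and 429.2 in Tbx5G125R. Control animal 3 and Tbx5G125R animal 1 were 22.4 apart, and the log2 fold change was -0.71 ± 0.11. Kcnq1 also held 4 gained regions, with folds from 0.53 to 0.82, so that its only lost region differed in sign from the rest of the gene. Ncoa1, a coactivator of nuclear receptors, had 597.1, 752.9, 442.5 and 595.0 against 376.3, 318.6, 424.8 and 320.9 (-0.70 ± 0.12). Pkd1l1, a polycystin-like protein known from left-right patterning, had 509.0, 780.8, 355.0 and 549.3 against 321.0, 255.0, 347.8 and 172.1 (-0.95 ± 0.17).

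In these 3 genes Control animal 2 was the highest and Control animal 3 the lowest of the Control group. The same order of highest and lowest held for Fry (687.9 and 362.6 in animals 2 and 3), the glycan-branching enzyme gene Mgat5 (548.4 and 378.4), the exocyst subunit gene Exoc4 (469.4 and 366.7) and Cyp46a1, which converts cholesterol to an oxysterol in brain (504.3 and 325.0). Pum3, an RNA-binding protein of the nucleolus, had its highest value in Control animal 1 (503.2) and its lowest in Control animal 4 (385.7). Counts are per region and were not divided by its width, which was 1000 bp in Pum3 and 750 bp in the other 7. For the 5 genes from Fry to Pum3, log2 fold changes ran from -0.54 ± 0.12 in Exoc4 to -0.78 ± 0.15 in Fry.

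**Figure D3:**
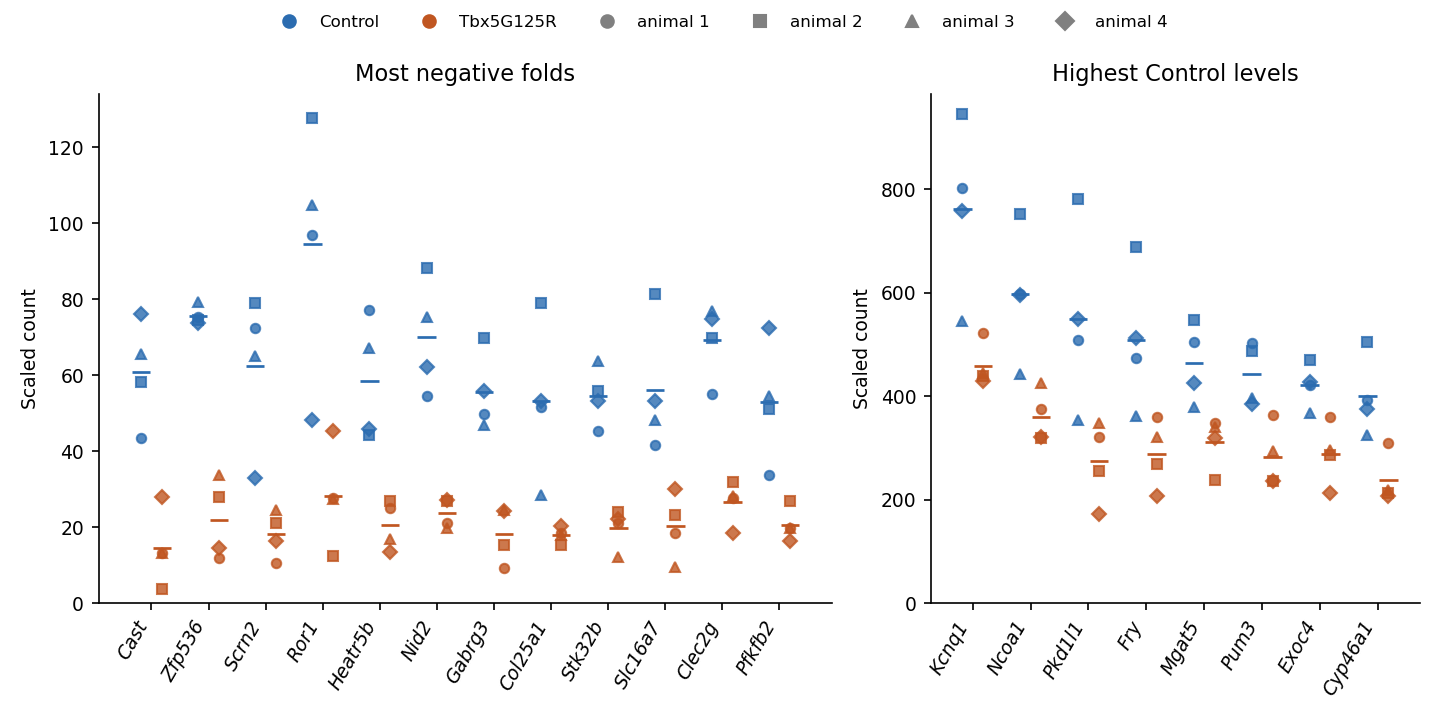
Scaled counts of each animal at the 12 regions of most negative fold among those at or above the median Control level (left) and the 8 of highest Control level (right), in both panels with 1 region per gene and only where the animals do not overlap, 1 symbol per animal, with lines at the group means of Control (blue) and Tbx5G125R (orange); the vertical axes start at 0 and differ between panels. The genotypes are separate at every region shown, and Control animal 2 (blue squares) is the highest Control animal in 7 of the 8 regions on the right.

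The rule took the geometric mean of the Control libraries, of which animals 1 and 3 had 2 each, and regions were listed on a called difference. The order among Control animals is therefore not independent of the selection. This order changed with the level of the region. In the 40 regions at 150 scaled counts or more, Control animal 2 was the highest Control animal in 31 and Control animal 3 the lowest in 29. In the 112 regions under 40, Control animal 1 was the highest in 59 and Control animal 2 in 11. Relative to the Control mean, the median of Control animal 2 was 0.29 on the log2 scale in the first set and -0.25 in the second. The same held in isolated lost regions outside genes, where the medians were 0.27 and -0.27. In gained gene-body regions it was weaker, at 0.04 and -0.15, and Control animal 2 was the highest in 36.6% of those at 150 or more. In Tbx5G125R, animal 1 was the highest in 25 of the 40. Control animal 2 had the lowest summed count of all animals over the 10010 listed regions. Over the 492 regions the lowest was Tbx5G125R animal 1 (16274, beside 16983 in Control animal 2). The part of depth in this order was not tested, and neither was the difference between classes. Level bands were set after the values were seen.

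**Figure D4:**
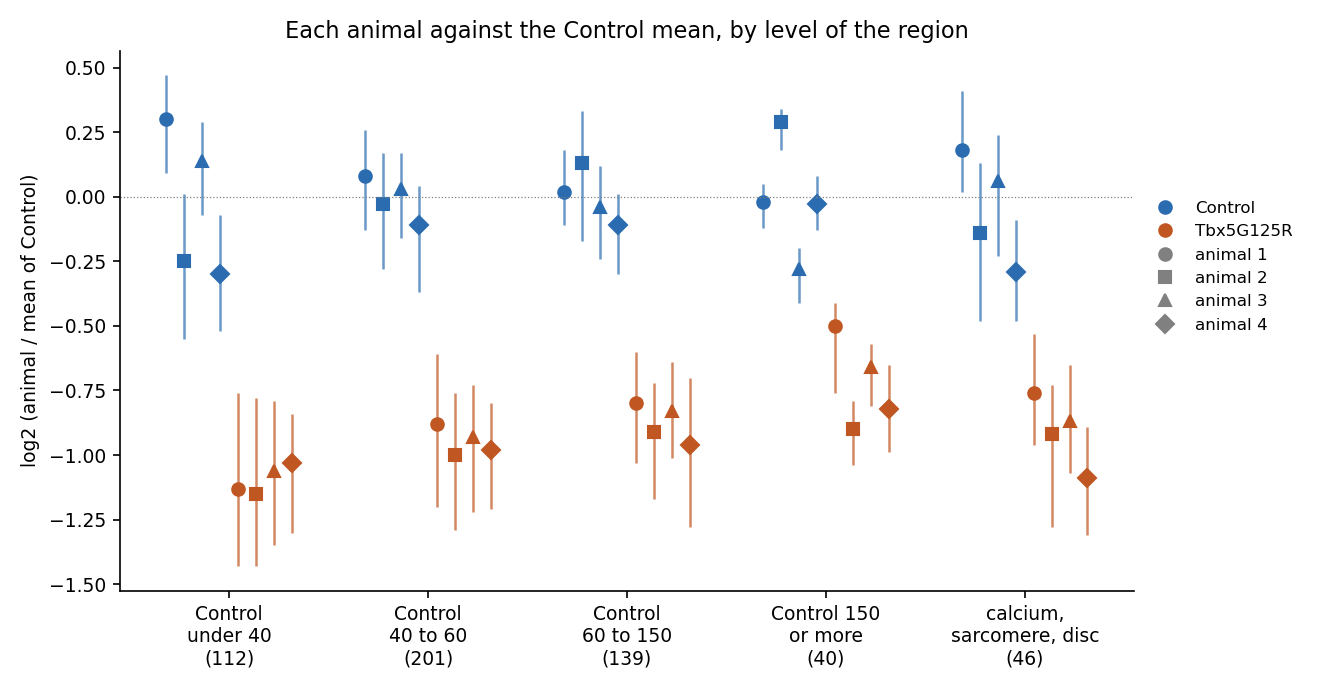
Median log2 ratio of each animal to the Control mean (symbols; log2 of scaled count plus 1) with quartiles (vertical lines), in 4 bands of the Control level and in the 46 regions of the calcium, sarcomere and disc gene lists; the number of regions is under each band. Control animal 2 (blue squares) moves from -0.25 to 0.29 as the level rises, while the medians of all Tbx5G125R animals lie under those of all Control animals in each band.

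Genes of the sarcomere, the contractile unit, and its Z-disc hosted 24 of the regions: 18 of 76 genes on the list (23.7%) held at least 1, against 421 of 21900 protein-coding genes (1.92%). Long genes have more room for a region, and the genes were not matched for length. The 24 had a median log2 fold change of -0.95 (range -1.47 to -0.72), beside -0.96 over all 492. In 9 of the 24 the animals did not overlap, beside 376 of 492 (76.4%) over all regions, and in 14 Control animal 1 was the highest of its group, beside 165 of 492 (33.5%). Spans of the same genes held 112 gained regions and 20 other lost ones.

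Sorbs2, an adaptor between actin and the Z-disc, had the largest fold of the list from 55.1, 16.3, 18.3 and 15.2 in Control against 10.5, 6.7, 12.2 and 11.6 in Tbx5G125R. Control animal 1 was far above the other Control animals, the rest lay only slightly above Tbx5G125R, and the log2 fold change of -1.47 ± 0.43 became -0.72 without it. Xirp1, an actin-binding protein of the intercalated disc, had 172.8, 65.1, 68.2 and 45.7 against 46.0, 53.9, 51.7 and 27.1, and went from -1.05 to -0.43. Des, the muscle intermediate filament desmin, had 127.0, 44.2, 64.1 and 44.4 against 40.8, 42.3, 41.4 and 31.9, and went from -0.93 to -0.44. In each of these 3 genes the edgeR call was lost with Control animal 1 left out. Xirp1 and Des were picked out after their values were seen.

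Myom2, an M-band protein, hosted 2. At chr8:15097751-15098750 it had 50.4, 55.8, 55.4 and 39.3 against 32.9, 27.9, 14.1 and 25.1 (log2 fold change -1.03 ± 0.27). Its other region, at chr8:15108501-15109000, had 79.4, 58.1, 63.6 and 77.4 against 40.8, 58.7, 34.8 and 30.9 (-0.77 ± 0.22), where Control animal 2 and Tbx5G125R animal 2 overlapped. At 1 region of Sgcd, a sarcoglycan of the dystrophin complex, Control animals had 165.8, 155.7, 108.3 and 154.8 and Tbx5G125R animals 75, 77.0, 72.4 and 80.2 (-0.92 ± 0.16). The other region of Sgcd, and that of Dmd, which encodes dystrophin, had Control animal 2 as the highest animal instead of animal 1.

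Calcium handling genes, which release, store and take up the calcium that triggers contraction, hosted 15 regions in 9 of 60 genes (median log2 fold change -1.02). Animals did not overlap in 9 of the 15, beside 76.4% over all 492. Cacna1d, a pore subunit of L-type calcium channels, had 36.5, 37.2, 43.2 and 48.2 in Control and 9.2, 11.5, 13.2 and 21.3 in Tbx5G125R (-1.56 ± 0.32). Camk2d, the main cardiac calmodulin-dependent kinase, had 45.2, 65.1, 26.4 and 27.9 against 11.8, 12.5, 24.4 and 12.6 (-1.33 ± 0.35), where Control animal 3 and Tbx5G125R animal 3 nearly met. Ryr2, the calcium release channel of the sarcoplasmic reticulum, hosted 3, of which the strongest had 49.3, 37.2, 60 and 31.7 against 10.5, 23.1, 22.6 and 23.2 (-1.19 ± 0.30). The other pair had folds of -1.02 and -0.98, and the call of the weaker was lost without Control animal 3 (log2 fold change -0.66). These 3 lay 134902 to 157402 bp from the nearest gene end. Ryr2 also held 7 lost regions in a run, at folds from -1.06 to -0.75, and 4 gained ones, at 0.62 to 0.73. Across the list, 55 lost regions not taken by the rule and 44 gained regions lay in the spans of the same 60 genes.

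Intercalated disc genes, which couple neighbouring CMs, hosted 8 regions in 7 of 36 genes (median -0.81). In 4 of the 8 the animals did not overlap, beside 76.4% of all regions taken by the rule. Nrap, an actin anchor at the disc, had 87.0, 44.2, 25.4 and 21.6 in Control against 22.4, 13.5, 19.7 and 18.4 (-1.32 ± 0.37), and lost its call without Control animal 1 (-0.64). Its animals overlapped, with Control animal 4 under Tbx5G125R animal 1. Ctnna3, an alpha catenin of the heart, was the highest of the list, with 264.9, 320.7, 219.7 and 236.0 against 207.9, 148.2, 142.9 and 171.1 (-0.62 ± 0.13). Its region lay 339746 bp from the nearest gene end, whereas its 2 gained regions had folds of 0.68 and 1.57. Ank3, an ankyrin membrane anchor (-1.02 ± 0.35), the N-cadherin gene Cdh2 (-0.81 ± 0.25) and the desmosomal gene Dsc2 (-0.73 ± 0.25) had animals that did not overlap.

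Taken as 1 set, the median log2 fold change over the 31 regions of the sarcomere and disc lists was -0.93 with all animals and -0.72 without Control animal 1. With the calcium list added, it went from -0.97 to -0.82 over 46 regions. The 446 regions outside these lists and the calcium list went from -0.96 to -0.90. Of the 14 regions whose call was lost without Control animal 1, 5 lay in Des, Myom1, Nrap, Sorbs2 and Xirp1. Both separately deposited libraries of Control animal 1 exceeded every other Control library in 13 of the 46 regions of the calcium, sarcomere and disc lists and in 86 of all 492.

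Lists of potassium, sodium, chloride, pacemaker and TRP channel genes held few of the regions in number. Their shares of host genes were 2.9% for potassium channels and 4.84% for the rest. Neither was below the 1.92% of all protein-coding genes, and the difference was not tested. Of 69 potassium channel genes, Kcnq1 and Kcnq5 hosted 1 each, and their list held 52 gained regions. Of 62 sodium, chloride, pacemaker and TRP channel genes, 3 hosted 1 each. Scn11a, a sodium channel of sensory neurons, had 175.7, 183.6, 144.4 and 197.9 against 102.6, 103.9, 124.1 and 83.1 (-0.74 ± 0.15). Fgf12, an intracellular modulator of sodium channels, had means of 106 ± 20.8 and 63.3 ± 6.7 (-0.71 ± 0.18), and the chloride channel-like gene Clic5 had 31.1 ± 7.97 and 14.5 ± 4.82 (-1.16 ± 0.34).

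Genes of cardiac transcription factors hosted 5 regions, in 3 of 72 genes, beside 99 gained regions. Myocd, the coactivator of serum response factor in heart and smooth muscle, had 47.5, 67.4, 45.8 and 24.1 against 23.7, 18.3, 21.6 and 12.6 (-1.26 ± 0.31). Lowest Control and highest Tbx5G125R animals were only 0.4 apart there. Esrrg, an orphan nuclear receptor of oxidative metabolism, had 71.9, 62.7, 67.1 and 66.0 against 47.4, 19.2, 33.8 and 30.0 (-1.07 ± 0.24), and Nr3c2, the mineralocorticoid receptor, -0.89 ± 0.26. The 26 KLF and SP factor genes hosted none and held 22 gained regions. Since 1.92% of all protein-coding genes hosted a region, an empty list of 26 genes says little. Chromatin modifier genes hosted 2 of high level, the region of Ncoa1 given above and 1 in the methyltransferase-family gene Kmt2e (151 ± 20.5 and 95.1 ± 6.8, -0.64 ± 0.14).

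**Figure D5:**
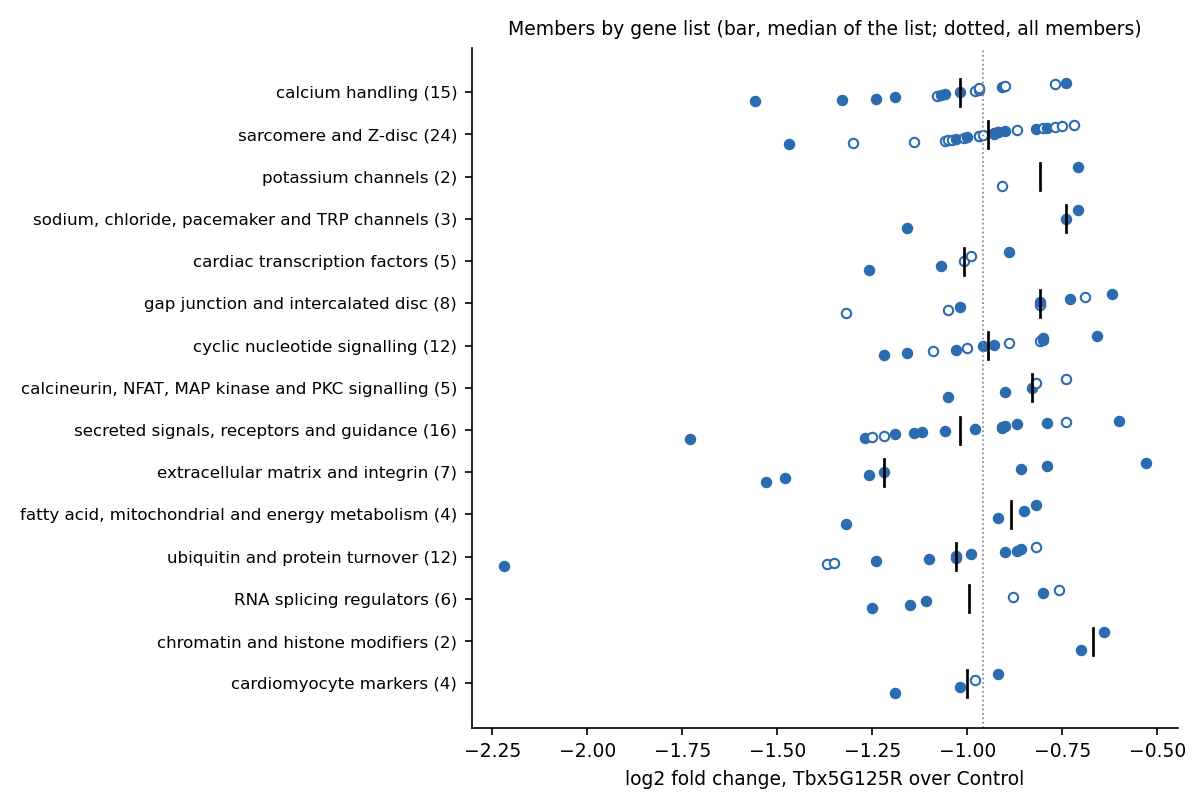
Log2 fold change of each region in 15 of the gene lists, with filled points where the animals of the genotypes do not overlap, bars at the median of each list and the number of regions in brackets; a gene may stand in more than 1 list. The dotted line is the median of all 492 regions (-0.96), and list medians run from -1.22 for extracellular matrix and integrin genes to -0.67 for chromatin modifiers.

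Signalling genes gave 16 regions in 15 of 105 genes for secreted signals, receptors and guidance (median -1.02), and 12 of the 16 had animals that did not overlap, a share close to the 76.4% over all 492. Besides Ror1, these included Angpt1, a vascular ligand, with 50.4, 41.8, 39.2 and 41.9 against 14.5, 21.2, 22.6 and 13.5 (-1.27 ± 0.29), and Nrg1, a ligand of ErbB receptors, with 61.5, 93.0, 61.0 and 72.3 against 22.4, 26.9, 35.7 and 35.8 (-1.19 ± 0.23). In both genes the groups were well apart. Cyclic nucleotide signalling genes hosted 12 in 11 of 69 genes (median -0.95). The most negative with animals that did not overlap, 1 region per gene, were in the anchoring protein gene Akap13 (-1.22 ± 0.28), the phosphodiesterase gene Pde3a (-1.16 ± 0.30) and Akap7 (-1.03 ± 0.27). Akap7 had Control animal 2 at 141.8 and the other Control animals at 52.0 to 64.4.

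Calcineurin, NFAT, MAP kinase and PKC genes hosted 5 in 5 of 64 genes (median -0.83), with the calcineurin catalytic subunit gene Ppp3ca at 45.1 ± 7.33 and 21.7 ± 4.96 (-1.05 ± 0.28), Mapk10 at -0.90 ± 0.27 and Nfat5 at -0.83 ± 0.27. Extracellular matrix and integrin genes had 7 in 7 of 78 genes (median -1.22), and in 7 of 7 the animals did not overlap, beside 76.4% over all 492. They included Nid2, Col25a1 and the collagen VI gene Col6a3 (34 ± 5.67 and 14.5 ± 3.9, -1.26 ± 0.32). The lists of other cell types held none of the 492 regions, but nidogens and collagens are also made by fibroblasts, and their source nuclei were not tested.

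Metabolic genes hosted 4 in 4 of 84 genes: Pfkfb2, the muscle creatine kinase gene Ckm (51.0, 41.8, 42.7 and 50.7 against 30.3, 26.9, 23.5 and 19.3, -0.92 ± 0.26), the glycogen branching enzyme gene Gbe1 and Lpl. Gbe1 lost its call without Control animal 3 (-0.58). Ubiquitin and protein turnover genes hosted 12 in 9 of 99 genes (median -1.03), and among those with animals that did not overlap, 1 region per gene, the most negative were in Trim55, Fbxl17 (-1.10 ± 0.28) and Kbtbd12 (-1.03 ± 0.30). RNA splicing regulators hosted 6 in 4 of 43 genes, among them Tra2a (-1.25 ± 0.32), Celf2 (-1.15 ± 0.33) and Mbnl2 (-1.11 ± 0.32).

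Most host genes (361) held a single region, 50 held 2, 9 held 3, and Zbtb20, a zinc-finger repressor gene, held 4. Zbtb20 had means of 31, 34.2, 52.2 and 54.8 in Control and 13.8, 17, 27.8 and 28.5 in Tbx5G125R, in order along chromosome 16, and log2 fold changes of -1.26, -1.12, -0.92 and -0.91. Its 2 gained regions, each within 1 kb of an end of some annotated gene, were far higher, at 432 and 171 in Control. The second of these lay far from the ends of Zbtb20 itself. Tacc2, a microtubule and centrosome protein gene, had 3 within 6.5 kb (-0.88, -1.09 and -0.97), with Control animals 1 and 3 above 2 and 4 at the wider 2 of them. Tns3, a focal adhesion tensin, had -1.48, -1.05 and -1.08, with a gained region of 291 in Control between them, and the call at its second region was lost without Control animal 3 (-0.78).

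Qk, an RNA-binding regulator of splicing, had -0.88, -0.76 and -0.80. Lifr, the receptor of leukaemia inhibitory factor, had -0.88, -1.12 and -1.02, and Slc4a4, a sodium bicarbonate cotransporter, -0.79, -0.92 and -0.78. Pip5k1b, a lipid kinase, had -0.88, -0.84 and -1.29. Regions of 1 gene share the same animals and are not independent of each other.

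Median width was 500 bp, the bin size of the deposited counts, as in lost regions in runs and at gene ends. It was 750 bp in isolated lost regions outside genes and in the gained classes. Of the 492 regions, 300 were 500 bp wide, 145 were 750 bp and 47 were 1000 bp or wider. They lay deep in long genes, at a median of 14 kb from the nearest gene end (quartiles 5.78 and 36.3 kb, maximum 372 kb), and the host gene spanned a median of 119 kb (quartiles 54.4 and 295 kb, range 4.07 to 2390 kb). Gained gene-body regions lay in genes with a median span of 99 kb, a difference that was not tested. For 368 regions the strand of the gene was known. When each gene was cut into 3 equal parts along the direction of transcription, 126 lay in the first part, 124 in the middle part and 118 in the last, with a median place at 50.9% of the way along. Of the listed regions of each chromosome, isolated lost gene-body regions made up from 3.03% on chromosome 11 to 9.3% on chromosome 3, and none lay on Y.

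The nearest listed region was a gained one for 334 of the 492 and a lost one for 158, at a median gap of 61.5 kb (quartiles 14.6 and 162 kb). Of all listed regions, 8846 were gained and 1164 lost, so gained neighbours were less common, and lost neighbours more common, than in the list as a whole. The rule allowed runs of 2 and of 3 lost regions, which held 76 and 27 of the 492. The difference was not tested. In 205 regions (41.7%) the host gene also held a gained region, with the most, 13, in Nav2. By contrast 215 regions were the only listed region of their gene. Nearness to gene ends and to other lost regions was limited by the rule itself.

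Set beside the other classes, the spread between animals was alike in isolated lost regions inside and outside genes. The coefficient of variation had a median of 22.5% in Control and 23.1% in Tbx5G125R inside genes, and 22.7% and 21.9% outside (370 regions). In the 203 lost regions in runs it was 29% and 28.6%, and in gained gene-body regions 16.5% and 13.6%, at higher counts. Median log2 fold changes were -0.98 outside genes, -1.07 in runs and -1.0 at gene ends (99 regions). Lost regions in runs had non-overlapping animals in 56.2%, and Control animal 1 was their highest Control animal in 48.3%, against 33.5% of isolated gene-body regions. Only 1 region in runs (0.493%) reached 150 scaled counts in Control, against 40 of the isolated gene-body regions (8.13%). Among the other isolated lost regions, 48 of the 370 outside genes and 1 of the 99 at gene ends reached that level. None of these differences was tested.

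Near the limits of the rule, the largest raw count ratio of the 492 was 0.844, at Exoc4. The smallest above 1 among gene-body regions was 1.6, at Frmd5 (454.5 and 590.1 scaled counts). The ratio limit thus cut through an empty interval, but only regions with a called difference were listed, which leaves such a gap by itself. Mapt, encoding the microtubule protein tau, lay 1012 bp from a gene end and was taken (51.9 and 20.2, log2 fold change -1.36). Wasl, an activator of actin assembly, lay 941 bp from one and was not (43.8 and 22.6, -1.01). Gene-body regions in runs of 3 (27 regions, taken) and of 4 (19 regions, not taken) had median log2 fold changes of -1.02 and -1.08.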

How the data were processed

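Per the labels, libraries were sequenced as paired ends, and the submitters' processing notes name BWA, bedtools, DESeq2 and the build mm10, with no versions. Transposase shifting and duplicate removal are not given in the sources used here. The authors deposited raw read counts per library in regions of 500 bp bins, where an estimated count of 0.1 stood for 0 (26 values, rounded back), together with a signal column of geometric means per genotype, the authors' deposited log2 fold change and their deposited p-values, whose values are not printed here. The deposited log2 fold changes served only to set the offset between genotypes (0.29, residual SD 0.035).

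Counts were scaled within genotype by median ratios and fitted with edgeR 4.0.16 (quasi-likelihood, R 4.3.3) over all 10010 regions, 4 against 4 animals, no covariate, Benjamini-Hochberg adjusted at 0.05. Simulated counts were also run through the fit. Most simulated regions were unchanged, unlike the listed ones, so they cannot check the calls made here. Alternatives used DESeq2 1.42.0, limma 3.58.1 and other scalings, filters and member rules. Repeat libraries (chi-square per degree of freedom 1.62 to 1.67) were closer than different Control animals (2.01 to 2.9) and were summed. Genes came from RefSeq GRCm38.p6, a region going to the shortest gene it overlapped (6 overlapped more than 1), and strand was known for 368. Python 3.11.15 with pandas 2.3.3 did the rest. Depth of whole libraries is unknown, since counts cover the listed regions alone.

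The regions and gene lists were chosen with earlier results of these data known. Named were the 12 most negative folds at or above the median level and the 8 highest levels, 1 region per gene in each and with animals that did not overlap, up to 3 such regions per gene list, genes with 3 or more regions, and those next to the limits. Others are said to be picked after seeing values, as are Kcnq5, Ctnna3, Pkp2, Myom1, Sgcd, Dmd, Nav2 and Lpl. A few results are not reported here.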

Additional observations from a re-analysis of the deposited data

Results flagged for a closer look

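In groups of 4 animals, a single animal lay apart from the other 3 at 9 of the 204 groups checked (4.41%), about the 1 in 20 that chance gives. Among Control animals, the highest was animal 1 at Sorbs2 (55.1, others 15.2 to 18.3) and at Mbnl2 (49.3, others 29.5 to 32.5), and animal 2 at Akap7 (141.8, others 52.0 to 64.4). Among Tbx5G125R animals, animal 1 was the highest at Kcnq1 (522.3, others 429.2 to 444.6), at Cyp46a1 (309.2, others 207.8 to 218.1) and at the Lifr region nearest the gene end (34.2, others 26 to 27.3), and the lowest at the strongest Ryr2 region (10.5, others 22.6 to 23.2). Tbx5G125R animal 3 was the highest at Camk2d (24.4, others 11.8 to 12.6), and animal 4 the lowest at Des (31.9, others 40.8 to 42.3). Values are scaled counts. Over all 492 regions, 21 Control groups (4.27%) and 22 Tbx5G125R groups (4.47%) had such an animal. In the Control groups it was animal 2 as the highest in 8 and animal 1 as the highest in 7.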

How the results depend on the processing

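The scale between genotypes mattered most. With no offset, the median log2 fold change of the 492 regions was -0.67 in place of -0.96, 423 were called lower and 181 had animals that did not overlap, while scaling each animal to its own median ratio over the table gave a median of -1.65, 492 calls and 487 regions without overlap. A pseudocount of 5 gave a median of -0.82. Leaving out each animal in turn gave 478 to 492 calls, medians of -0.99 to -0.89 and 380 to 426 regions without overlap. DESeq2 called 492 and limma 487. Correlations of deviations between animals of the same replicate number were 0.17, -0.00074, 0.069 and 0.029 for numbers 1 to 4. The highest with another number were -0.00075, 0.0018, 0.11 and 0.027. Whether the animals numbered 1 share something in handling was not tested. The fit with a replicate block gave 492 calls and a median of -0.93. Other limits of the rule took 388 to 521 regions, the lowest with a distance over 5 kb and the highest with run gaps of 25 kb. Measuring distance to ends of protein-coding genes alone, chosen after seeing the data, took 509. Of 102 regions checked one by one in 1632 fits, none reversed and 18 fits lost the call, 9 of them with no offset. Depth limits the precision of low regions: Control animal 2 holds 16983 counts over the 492 regions, and regions not listed in the table were not analysed here.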
